A study of Mus musculus with 18 samples.

Results

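RNA-seq values of 7 genes were examined, the basal keratins Krt5, Krt14 and Krt15, the simple epithelial keratins Krt8 and Krt18, the transcription factor gene Trp63 and the adhesion gene Epcam. They were chosen by symbol, 7 of the 23359 gene symbols in the table, and each was found in 1 row. The libraries came from cells of the mouse main olfactory epithelium (MOE), sorted by fluorescence-activated cell sorting (FACS). In the Taar5-ires-Cre line crossed with lox-L10-GFP, at postnatal day 11 to 14, there were 7 libraries of reporter-positive (Taar5+) cells and 9 of reporter-negative (control) cells. In the Taar6-ires-Cre line crossed with lox-ZsGreen, at postnatal day 16 to 17, there was 1 library of reporter-positive (Taar6+) cells and 1 control. Controls carried the same knock-in and reporter alleles as the positive cells. The labels give the strain as C57BL/6, whereas the study's reporting summary gives mixed C57BL/6J and 129 backgrounds and older mice. Cre followed the stop codon of the receptor gene, so the reporter marks cells that transcribe it or once did, and control cells were every sorted cell without fluorescence, largely sensory neurons with odorant receptors (ORs). Line, reporter and age cannot be told apart between both lines. Nothing in the labels says that libraries came from separate animals, so p-values measure only the spread between these libraries.

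Keratins are the intermediate filament proteins of epithelial cells, and a filament is built from a type II keratin paired with a type I keratin. In the olfactory epithelium, horizontal basal cells, the reserve stem cells that lie on the basal lamina, pair KRT5 with KRT14 and depend on the transcription factor p63, the product of Trp63, to stay quiescent. Sustentacular cells, the supporting cells at the surface, and duct and gland cells carry the simple epithelial pair KRT8 and KRT18. Olfactory sensory neurons (OSNs) are not known for any of these keratins, whereas the epithelial cell adhesion molecule EPCAM is present on many epithelial cell types.

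The sequences before the starts of Krt5 and Epcam are shown because these genes were, respectively, among the more variable of the 7 across the 16 libraries of the Taar5 line (SD 2.44 on the log2 scale of TPM + 1) and the least variable (SD 0.40). Each is the 120 bases before the RefSeq start on GRCm38.p6, 5′ to 3′ on the gene's strand, chr15:101712906-101713025 (minus strand) for Krt5 and chr17:87635859-87635978 (plus strand) for Epcam. Capitals mark the repeat unit of a p53-family response element, the motif class that p63 also binds, and the letters ATAAAA near the start.
Krt5: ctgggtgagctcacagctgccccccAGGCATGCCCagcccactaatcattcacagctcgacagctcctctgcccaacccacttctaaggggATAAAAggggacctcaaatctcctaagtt
Epcam: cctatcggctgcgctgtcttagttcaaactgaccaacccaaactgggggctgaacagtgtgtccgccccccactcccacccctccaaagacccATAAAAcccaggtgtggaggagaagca

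In the Krt5 window the p53-family unit AGGCATGCCC lay at positions -95 to -86 from the start, and 3.11% of 32851 RefSeq promoter windows of the same length held such a unit on either strand. The letters ATAAAA lay at -29 to -24 in Krt5 and at -27 to -22 in Epcam, and 8.3% of windows held them, with no overlap with the other motif. The letters TATAAA, present in 6.34% of windows, were in neither sequence. The motifs were chosen after these sequences were read, and a match is a description of letters, not a site. The RefSeq table matched 5 of the 7 genes, and the windows of Krt14, Krt8 and Krt18 are not printed because they lay within the annotated gene or overlapped an annotated exon.

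Positions are from GENCODE M21 on GRCm38. Krt5 lies at chr15:101707070-101712898 (minus strand, 9 exons), Krt8 at chr15:101996698-102004482 (minus strand, 9 exons) and Krt18 at chr15:102028180-102032027 (plus strand, 7 exons). Krt18 is the type I keratin that lies within the type II cluster, 23697 bases from its partner Krt8, and Krt5 lies 283799 bases from Krt8. Krt14, at chr11:100203162-100207548, and Krt15, at chr11:100131758-100135928, are type I genes of 8 exons each on the minus strand, 67233 bases apart. Trp63 spans chr16:25683763-25892102 (plus strand) with 14 exons in its longest transcript and 8 annotated transcripts, and Epcam spans chr17:87635979-87651129 (plus strand) with 10 exons in its longest transcript. The deposited table has 1 value per gene, so isoforms of Trp63 could not be told apart.

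Values are TPM (transcripts per 1000000), a share of the library corrected for transcript length, and their depth is unknown. In all 16 libraries of the Taar5 line the olfactory marker protein gene Omp was high, at 3908 to 20070 TPM, as is known for mature OSNs. Receptor transcripts followed the sort, with summed Taar TPM of 1517 to 7804 in Taar5+ libraries and 94.5 to 403 in 8 controls. A pair of libraries stood apart. In control replicate 2 only 5939 gene rows exceeded 0, where the rest of the controls had 11352 to 17015, and its 6 sustentacular markers summed to 9868 TPM, against 356 to 1985. Taar5+ replicate 5 had the highest number of rows above 0 of its group (17808), the highest summed OR TPM (5525, against a group median of 619), the lowest summed Taar TPM (1517) and the highest sustentacular sum (16573 TPM, against 226 to 4293). Results that rest on these libraries are given with and without them.

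The 7 genes spanned a wide range of levels. By median TPM, which can be compared between genes because it is corrected for length, the order in the controls was Epcam (565), Krt18 (172), Krt8 (85.3), Krt14 (56.9), Krt5 (29.1), Trp63 (9.54) and Krt15 (8.12). Krt18 was above Krt8 in 9 of 9 controls and Krt14 above Krt5 in 8 of 9, whereas Trp63 was above Krt15 in only 3 of 9, so the last pair did not differ beyond their spread. In Taar5+ libraries the medians were 418 for Epcam, 51.8 for Krt18, 50.6 for Krt8, 3.36 for Krt14, 0.398 for Krt15, 0.279 for Krt5 and 0 for Trp63. Neighbours among the lower 4 were not clearly separated there, since Krt14 exceeded Krt15 in 4 of 7 libraries, Krt15 exceeded Krt5 in 2 of 7 and Krt5 exceeded Trp63 in 3 of 7.

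**Figure D1:**
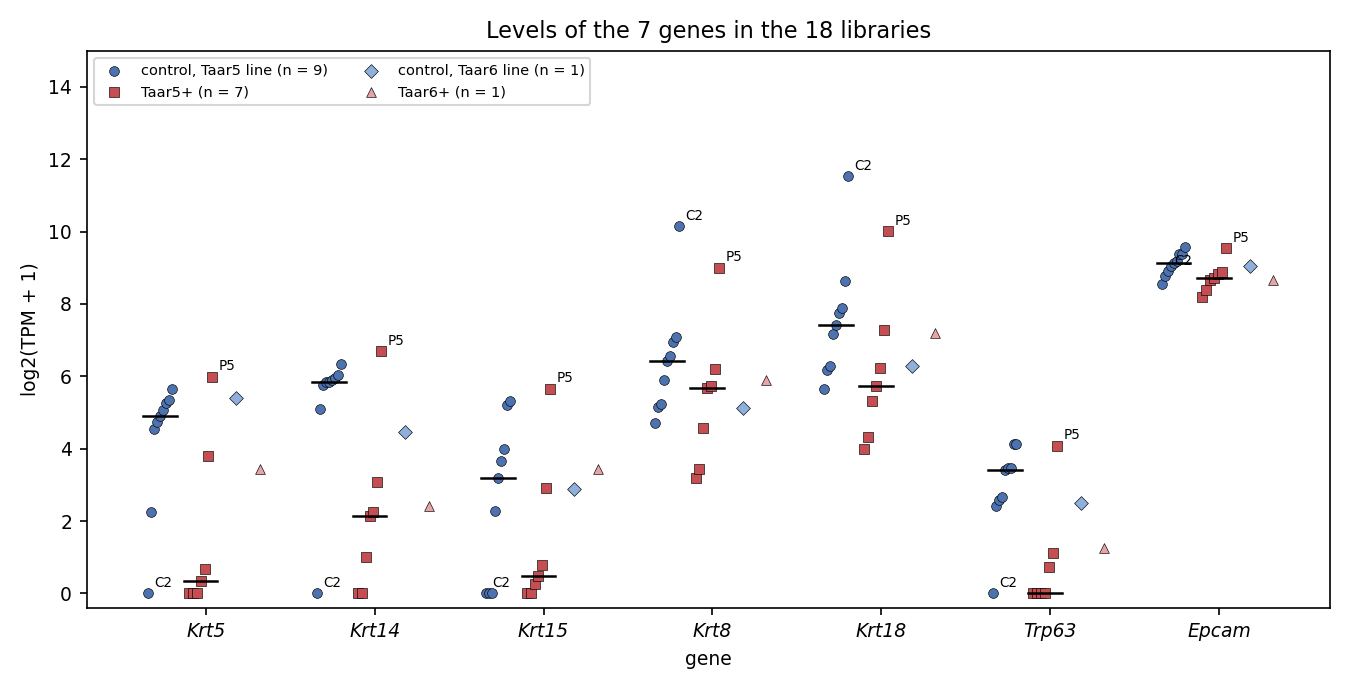
Level of each gene on the log2(TPM + 1) scale (vertical axis) in each of the 18 libraries, by gene (horizontal axis); points are libraries, black bars are medians of the 9 controls and of the 7 Taar5+ libraries, and C2 and P5 mark control replicate 2 and Taar5+ replicate 5. Krt14 lay between 33.0 and 80.6 TPM in 8 controls and at 0 to 7.42 TPM in 6 Taar5+ libraries, while C2 and P5 lay at the opposite ends, and Epcam varied least.

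Krt14 is the type I keratin of basal cells. Its lowest, median and highest values were 0, 56.9 and 80.6 TPM in the 9 controls and 0, 3.36 and 102 TPM in the 7 Taar5+ libraries. The ranges overlapped because control replicate 2 was listed at 0 and Taar5+ replicate 5 was the highest of all libraries. The mean was 51.6 ± 22.9 TPM (SD, n = 9) in controls and 16.8 ± 37.8 TPM (SD, n = 7) in Taar5+ libraries, and the log2 fold change was -3.04 (SE 0.974, limma adjusted p = 0.312). With both libraries left out, 8 controls had 33.0, 57.8 and 80.6 TPM as lowest, median and highest, and 6 Taar5+ libraries had 0, 2.19 and 7.42 TPM. Every one of these Taar5+ libraries lay below every one of these controls, the mean of the controls was 22.4 times that of the Taar5+ libraries, and the log2 fold change was -4.44 (SE 0.487, limma adjusted p = 5.53e-05).

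Krt5, the type II partner of Krt14, had 0, 29.1 and 49.2 TPM as lowest, median and highest in the controls and 0, 0.279 and 62.7 TPM in Taar5+ libraries. Control replicate 2 was again listed at 0 and Taar5+ replicate 5 was again the highest. Besides these, control replicate 4 was low for its group, at 3.74 TPM, and Taar5+ replicate 1 was high for its group, at 13.0 TPM. The mean was 26.5 ± 16.1 TPM (SD, n = 9) in controls and 10.9 ± 23.3 TPM (SD, n = 7) in Taar5+ libraries, with a log2 fold change of -2.64 (SE 0.977, limma adjusted p = 0.436). Without both libraries the ranges still overlapped, at 3.74 to 49.2 TPM in controls and 0 to 13.0 TPM in Taar5+ libraries, and 5 of 6 Taar5+ libraries lay below all 8 controls. The log2 fold change was then -3.91 (SE 0.665, limma adjusted p = 0.00272).

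Trp63 encodes p63, the transcription factor of basal epithelial stem cells. Its lowest, median and highest values were 0, 9.54 and 16.5 TPM in controls and 0, 0 and 15.97 TPM in Taar5+ libraries, of which 4 of 7 were listed at 0. The groups overlapped through the same pair of libraries. The mean was 8.59 ± 5.52 TPM (SD, n = 9) in controls and 2.54 ± 5.94 TPM (SD, n = 7) in Taar5+ libraries, with a log2 fold change of -2.07 (SE 0.678, limma adjusted p = 0.320). Without both, controls held 4.34 to 16.5 TPM and Taar5+ libraries 0 to 1.17 TPM, with no overlap, and the log2 fold change was -2.97 (SE 0.447, limma adjusted p = 0.00102).

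Krt15, a type I keratin of basal cells in stratified epithelia, was the most uneven of the basal genes within the controls. It had 0, 8.12 and 38.8 TPM as lowest, median and highest in controls and 0, 0.398 and 49.6 TPM in Taar5+ libraries. Controls 2, 7 and 8 were listed at 0, although controls 7 and 8 had 56.9 and 64.3 TPM of Krt14, so Krt15 was at 0 in libraries where another basal keratin was not. The mean was 12.5 ± 14.98 TPM (SD, n = 9) and 8.20 ± 18.4 TPM (SD, n = 7), and the difference did not pass the test with all libraries (log2 fold change -1.18, SE 0.988, limma adjusted p = 0.947) or without both (log2 fold change -2.21, limma adjusted p = 0.221).

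Krt8 and Krt18, the simple epithelial pair, did not pass the test in either set of libraries. Krt8 had 25.1, 85.3 and 1145 TPM as lowest, median and highest in controls and 8.15, 50.6 and 513 TPM in Taar5+ libraries. Krt18 had 48.7, 172 and 2947 TPM in controls and 14.9, 51.8 and 1026 TPM in Taar5+ libraries. Here control replicate 2 was the highest of its group and not the lowest, and Taar5+ replicate 5 was the highest of the other. The remaining libraries of both groups overlapped, although 3 of 7 Taar5+ libraries lay below all controls for each gene. The mean of Krt8 was 193 ± 359 TPM (SD, n = 9) in controls and 104 ± 182 TPM (SD, n = 7) in Taar5+ libraries, with a log2 fold change of -1.06 (SE 0.792, limma adjusted p = 0.935). The mean of Krt18 was 479 ± 932 and 197 ± 369 TPM, with a log2 fold change of -1.49 (SE 0.827, limma adjusted p = 0.830). Without both libraries the log2 fold changes were -1.20 for Krt8 (limma adjusted p = 0.286) and -1.65 for Krt18 (limma adjusted p = 0.105).

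Epcam was the steadiest of the 7, with the highest library only 2.61 times the lowest over the 16, against 141 times for Krt8 and 198 times for Krt18. It had 374, 565 and 764 TPM as lowest, median and highest in controls and 293, 418 and 741 TPM in Taar5+ libraries. The groups overlapped, with 2 of 7 Taar5+ libraries below all controls, and control replicate 2, at 479 TPM, lay inside the range of its group. The mean was 562 ± 124 TPM (SD, n = 9) and 445 ± 145 TPM (SD, n = 7), with a log2 fold change of -0.36 (SE 0.193, limma adjusted p = 0.806) and of -0.52 without both libraries (limma adjusted p = 0.134).

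Of the 7 genes, 0 passed the threshold with all 16 libraries, where 0.168% of the 12502 genes tested passed in either direction. At an unadjusted p under 0.05, 3 of 7 (Krt5, Krt14 and Trp63) were lower in Taar5+ libraries, against 5.38% of all genes tested. All 7 passed the filter on low values, which asks for 1 TPM in 7 libraries and can be met by controls alone. Krt5 and Trp63, with Taar5+ medians of 0.279 and 0 TPM, met it mainly through controls. Passing the filter is thus no support for the difference. The median log2 fold change of the 7 was -1.49, with a median of 0.02 over all genes. Without control replicate 2 and Taar5+ replicate 5, Krt14, Krt5 and Trp63 fell in Taar5+ cells, 3 of 7, against 2.42% of 11915 genes tested. The minimum of 7 libraries was kept there, with 8 controls and 6 Taar5+ libraries. Genes that reached 1 TPM only in Taar5+ cells could therefore not be tested. Krt14 and Trp63, 2 of 7, then had every Taar5+ library below every control, against 0.831% of genes. The pair of libraries left out was chosen with earlier results known. Krt14 and Trp63 overlapped between groups through that pair, so the calls and the separation depend on this choice. The median log2 fold change of the 7 was then -2.21, while that of all genes moved to -0.22. Without control replicate 2 alone, Krt14 passed (log2 fold change -3.69, limma adjusted p = 0.0193), and without Taar5+ replicate 5 alone, Trp63 passed (log2 fold change -2.61, limma adjusted p = 0.0477). In such bulk samples fewer cells of a type and less RNA per cell cannot be told apart.

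**Figure D2:**
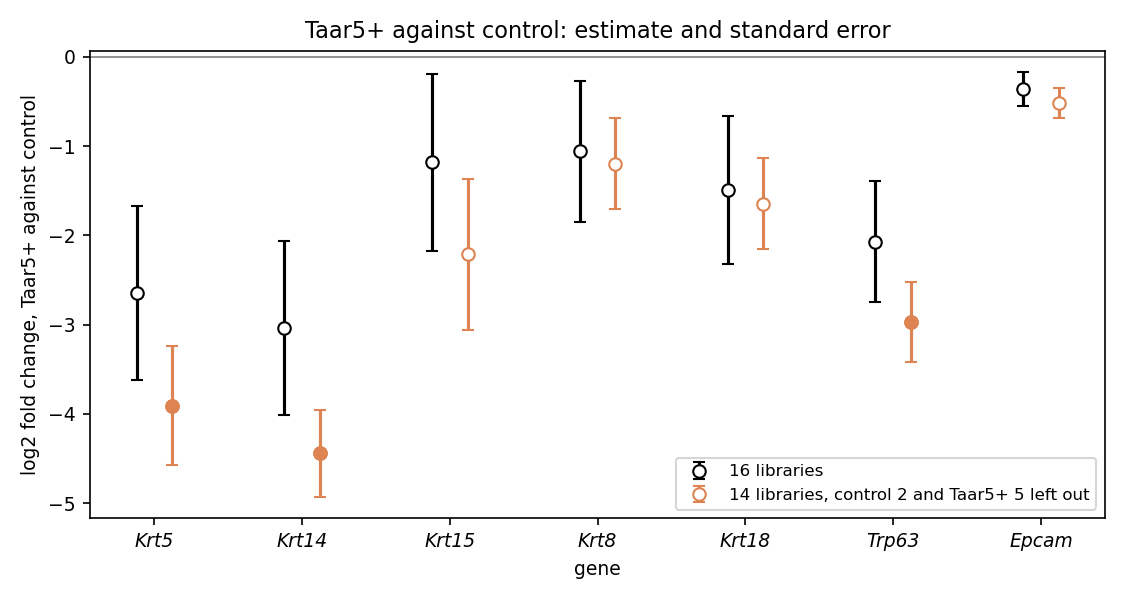
Log2 fold change of each gene in Taar5+ against control libraries (vertical axis, log2 of TPM + 1), with bars for the standard error, from the 16 libraries (black) and from 14 libraries without control replicate 2 and Taar5+ replicate 5 (orange); filled points have an adjusted p under 0.05. All 7 estimates lay below 0 in both sets, and the filled points are Krt5 at -3.91, Krt14 at -4.44 and Trp63 at -2.97, in the 14 libraries.

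The summed TPM of Krt5, Krt14 and Krt15 had a median of 101 in controls (0 to 142) and of 4.74 in Taar5+ libraries (0 to 215), and that of Krt8 and Krt18 a median of 265 (73.8 to 4092) and of 102 (23.0 to 1539). Basal keratins were thus a median of 29.5% of the sum of the 5 keratins in controls and 8.10% in Taar5+ libraries. In Taar5+ libraries the share was at most 20.5%, and it was 12.2% in replicate 5, which had the highest sums of both kinds. In controls it ranged from 0% in replicate 2 to 56.0% in replicate 1, so the groups overlapped through replicate 2 and through control replicate 4, at 18.5%.

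The partners Krt8 and Krt18 moved together within both groups. On the log2(TPM + 1) scale Pearson's r was 0.97 in the 9 controls (exact permutation p = 0.000273, adjusted over 12 relations 0.00164; Spearman's rho 0.88, exact permutation p = 0.00308, adjusted 0.0185). In the 7 Taar5+ libraries it was 0.98 (exact permutation p = 0.000198, the smallest that 7 libraries allow, adjusted 0.00164; rho 1, exact permutation p = 0.000397, adjusted 0.00476). Without the 2 libraries farthest from the median of Krt8, r was 0.85 and 0.93. The TPM of Krt18 exceeded that of Krt8 in 18 of 18 libraries, by 1.67 to 4.07 times in controls and by 1.02 to 2.15 times in Taar5+ libraries. These values are shares of the same library and share its composition.

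The basal pair was less regular. The r of Krt5 with Krt14 was 0.83 in controls (exact permutation p = 0.0506, adjusted 0.0619; rho 0.22, exact permutation p = 0.581, adjusted 0.581) and 0.31 without replicates 2 and 4, and 0.80 in Taar5+ libraries (exact permutation p = 0.0429, adjusted 0.0619; rho 0.60, exact permutation p = 0.170, adjusted 0.255) and 0.34 without replicates 1 and 5. It therefore rests on those libraries, and leaving out control replicate 2 alone gave -0.02 and Taar5+ replicate 5 alone 0.33. Among the 8 controls with Krt5 above 0, Krt14 exceeded Krt5 in each, by 1.16 to 16.4 times, the largest in replicate 4. In the 4 Taar5+ libraries with Krt5 above 0 the ratio ranged from 0.259 to 6.15.

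Krt5 and Trp63, a basal keratin and a basal transcription factor, had an r of 0.93 in Taar5+ libraries (exact permutation p = 0.00476, adjusted 0.0191; rho 0.94, exact permutation p = 0.00476, adjusted 0.0191) and 0.87 without replicates 1 and 5. Of the 7 Taar5+ libraries, 3 had Krt5 and 4 had Trp63 listed at 0. Without replicates 1 and 5 only replicate 3 had both above 0, at 0.607 and 0.665 TPM, so the 0.87 rests on 1 library near 0. In controls the r was 0.78 (exact permutation p = 0.0402, adjusted 0.0619; rho 0.68, exact permutation p = 0.0503, adjusted 0.121) and 0.76 without replicates 2 and 4, but 0.19 without replicate 2 alone and 0.92 without replicate 4 alone. Krt14 with Krt15 did not pass in controls (r = 0.48, exact permutation p = 0.162, adjusted 0.177; rho 0.37, exact permutation p = 0.323, adjusted 0.356) or in Taar5+ libraries (r = 0.82, exact permutation p = 0.0516, adjusted 0.0619; rho 0.43, exact permutation p = 0.327, adjusted 0.356), with r of 0.26 and 0.10 without the farthest 2. Leaving out control replicate 2 alone gave 0.24, and Taar5+ replicate 5 alone 0.26.

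Across the pairs, Krt5 with Krt8 had an r of -0.85 in controls (exact permutation p = 0.0119, adjusted 0.0358; rho -0.60, exact permutation p = 0.0968, adjusted 0.166) and of 0.82 in Taar5+ libraries (exact permutation p = 0.0202, adjusted 0.0486; rho 0.52, exact permutation p = 0.245, adjusted 0.327). Without the 2 farthest libraries these were -0.20 and -0.30, so the opposite signs rest on controls 2 and 4 and on Taar5+ 1 and 5. Without control replicate 2 alone the first was -0.47, and without Taar5+ replicate 5 alone the other was 0.48. Krt8 with Epcam had an r of -0.46 in controls (exact permutation p = 0.218, adjusted 0.218; rho -0.62, exact permutation p = 0.0857, adjusted 0.166) and of 0.82 in Taar5+ libraries (exact permutation p = 0.0268, adjusted 0.0536; rho 0.79, exact permutation p = 0.0480, adjusted 0.121), and of -0.61 and 0.69 without the farthest 2. The r of 0.82 was 0.47 without Taar5+ replicate 5 alone. By Pearson's r, 5 of the 12 relations passed the threshold, and by Spearman's rho 3 of 12 did.

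**Figure D3:**
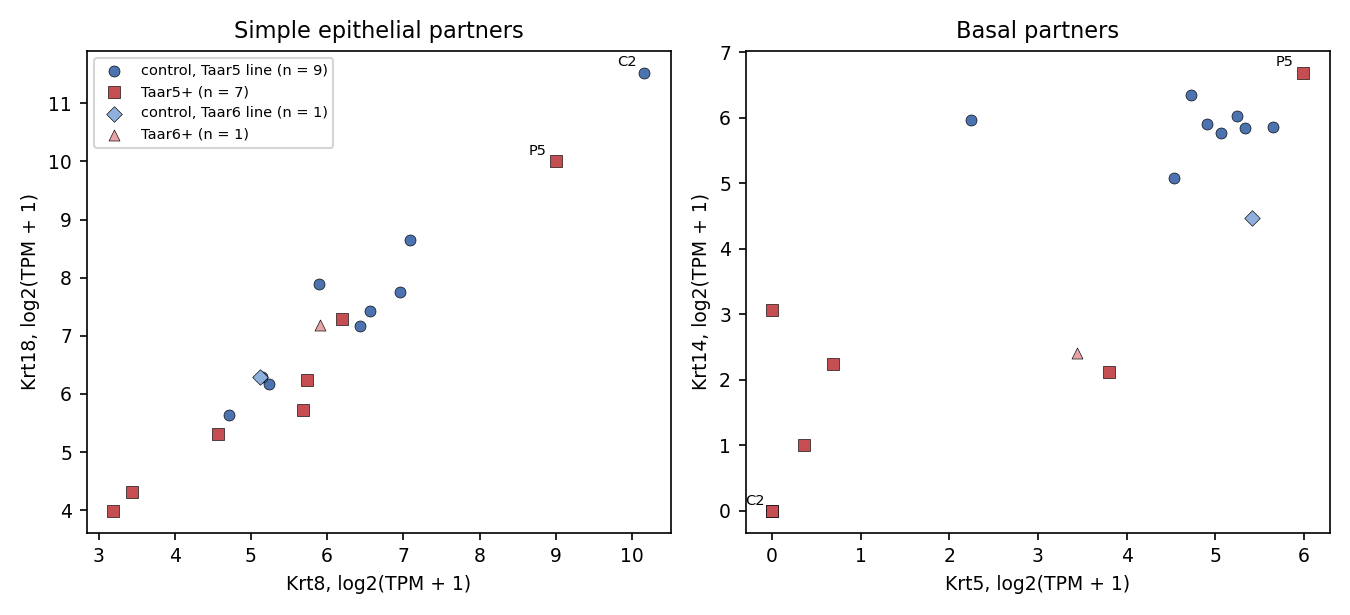
Level of Krt18 against Krt8 (left) and of Krt14 against Krt5 (right), both axes log2(TPM + 1), with 1 point per library, coloured by group; C2 and P5 mark control replicate 2 and Taar5+ replicate 5. The simple pair lay along a line in both groups (r = 0.97 and 0.98), with C2 and P5 at its upper end, whereas in the basal pair C2 lay at 0 and P5 at the top.

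Markers of other cell types were set beside these genes in single libraries, and no relation across libraries was tested. Control replicate 2 had the highest Krt8 and Krt18, a sustentacular sum of 9868 TPM and a gland sum of 1700 TPM (2.83 to 159 in the other controls). In that library Krt5, Krt14, Krt15 and Trp63 were listed at 0, and so were 5 of 5 markers of basal progenitors, which control replicate 8 also had at 0. Zeros were common there, since only 5939 of 23847 rows exceeded 0, so they are not read as particular to basal genes. Taar5+ replicate 5 had the highest level of each of the 7 genes in its group, with a sustentacular sum of 16573 TPM, a gland sum of 6304 TPM (2.60 to 191 in the others) and a progenitor sum of 108 TPM (0.628 to 19.3). Its mature OSN markers summed to 19534 TPM, against 23895 to 34894 in the other Taar5+ libraries. In Taar5+ replicate 1, the library with the second highest Krt5 of its group, the sustentacular sum was 4293 TPM and Krt14 was 3.36 TPM. The part of these markers in the results was not tested.

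**Figure D4:**
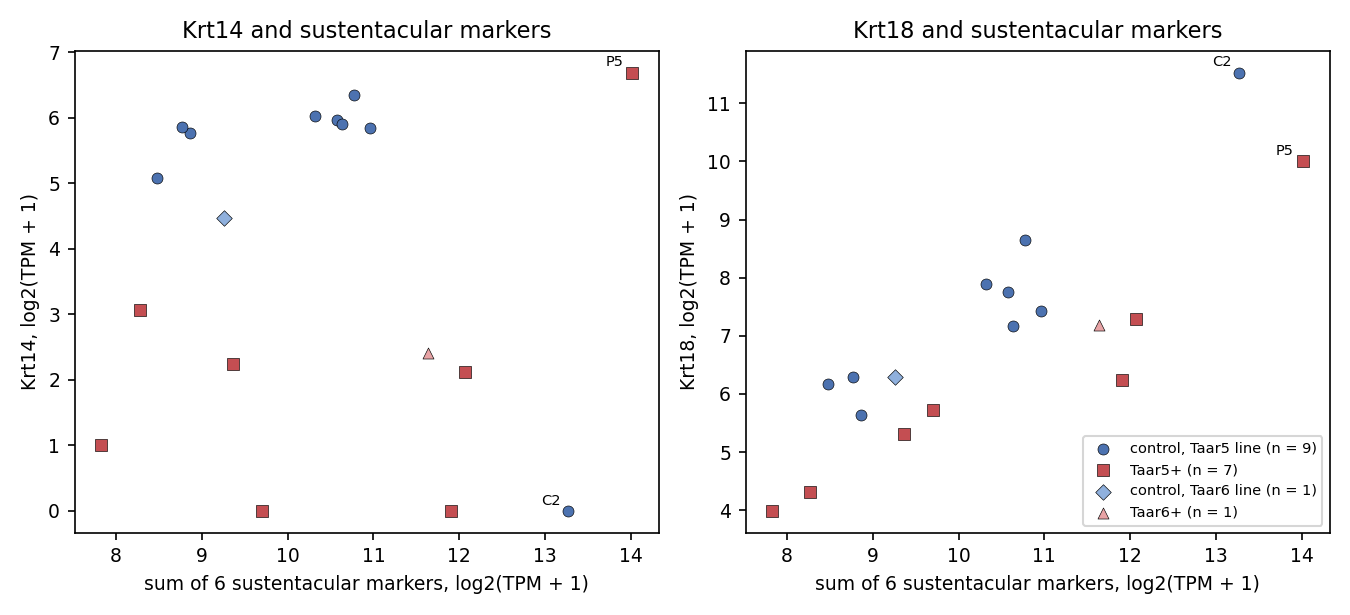
Levels of Krt14 (left) and Krt18 (right) against the sum of 6 sustentacular markers, all as log2(TPM + 1), with 1 point per library, coloured by group; C2 and P5 mark control replicate 2 and Taar5+ replicate 5. C2 (marker sum 9868 TPM) and P5 (16573 TPM) had the highest marker sums and the highest Krt18, and for Krt14 C2 lay at 0 and P5 at the top.

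The keratin family held 52 genes in the table, of which 15 were listed at 0 in all 16 libraries, 40 did not reach the filter and 12 were tested. Of the 12, 0 passed the threshold with 16 libraries. At an unadjusted p under 0.05, 4 of the 12 were lower in Taar5+ libraries, against 5.38% of all genes tested. Without both libraries, 4 of 12 fell in Taar5+ cells, against 2.42% of 11915 genes tested. These were Krt14 and Krt5, described above, and Krt17 and Krt7. Krt17, a type I keratin close in sequence to Krt14, had 0, 73.3 and 151 TPM as lowest, median and highest in 8 controls and 0, 0.283 and 14.6 TPM in 6 Taar5+ libraries (log2 fold change -4.39, limma adjusted p = 0.0135). Krt7, a type II keratin of simple epithelia, had 3.72, 19.9 and 63.3 TPM and 0, 0.335 and 12.1 TPM (log2 fold change -3.09, limma adjusted p = 0.0295). With the 16 libraries the log2 fold changes were -2.995 for Krt17 (limma adjusted p = 0.533) and -2.04 for Krt7 (limma adjusted p = 0.664). How reads shared by similar keratins were assigned is not given in the sources used here, so levels of Krt14 and Krt17 could be split between them.

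The other keratins with a mean of at least 5 TPM did not pass in either set. Krt23 had medians of 23.3 TPM in controls and 9.66 TPM in Taar5+ libraries, Krt19, a simple type I keratin, 7.91 and 1.72 TPM, Krt10, a keratin of differentiated epidermis, 16.4 and 18.3 TPM, and Krt72, known from the hair follicle, 9.72 and 5.59 TPM. Their log2 fold changes with 16 libraries ran from -0.42 for Krt72 to 0.57 for Krt10. Krt10 (SE 0.60) and Krt19 (0.05, SE 1.14) had estimates above 0 with the 16 libraries, against estimates below 0 for the 5 keratins described first. The Krt19 estimate was small beside its SE, and its sign rests on Taar5+ replicate 5, its highest library at 129 TPM.

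Genes of the same structures as the basal keratins gave few calls. Of 10 genes of horizontal basal cell adhesion and hemidesmosomes, the junctions that tie basal keratin filaments to the basal lamina, 7 were tested and 0 passed, with a median log2 fold change of 0.23. The highest by mean TPM were the tetraspanin gene Cd151 (medians 8.38 TPM in controls and 11.3 TPM in Taar5+ libraries), Dst, which encodes the linker dystonin (9.51 and 10.2 TPM), and Lad1, a basement membrane gene under the filter (0.499 and 0 TPM). Lad1 ranked there through control replicate 2, at 89.7 TPM, against at most 6.58 TPM in the other controls. Without both libraries 1 of 5 tested fell, the hemidesmosome collagen gene Col17a1, listed at 0 in all 6 Taar5+ libraries and at 0 to 8.29 TPM in 8 controls (limma adjusted p = 0.0460), and the list's median was -0.40. Of 6 other horizontal basal cell genes, 4 were tested and 0 passed (median -0.81). The highest by mean TPM were Sfn, which encodes the epithelial protein 14-3-3 sigma (medians 13.0 and 2.72 TPM), the adhesion gene Icam1 (2.23 and 0 TPM) and the receptor gene Notch1 (2.82 and 1.90 TPM). Icam1 was at 119 TPM in control replicate 2 and at most 10.4 TPM in the other controls. Without both libraries 1 of 3 fell, Sfn (log2 fold change -1.96, limma adjusted p = 0.0360), and the median was -0.44. Over all genes tested, 2.42% were lower at the threshold without both libraries.

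Of 11 desmosome genes, whose products join keratin filaments between cells, 8 were tested and 0 passed in either set, with medians of -0.20 and -0.55. Jup, the plakoglobin gene, had 133 and 96.2 TPM as medians, Perp, a p63 target, 27.01 and 8.18 TPM, and Ppl, the periplakin gene, 11.6 and 16.5 TPM. Of 13 genes of epithelial junctions and identity, the setting of Epcam, all 13 were tested and 0 passed (median -0.30), and 0 of 12 passed without both libraries (median -0.68). Spint2, a protease inhibitor gene, had 841 and 1018 TPM, and the claudin genes Cldn3 and Cldn7 590 and 496 TPM and 77.5 and 53.2 TPM. At an unadjusted p under 0.05, 1 desmosome gene, 2 other basal genes, 1 junction gene and 0 adhesion genes were lower in Taar5+ libraries, against 5.38% of all genes tested.

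Among the lists of other cell types given here 0 genes passed with 16 libraries. The medians of the log2 fold changes were 0.41 for 6 sustentacular markers (Cbr2, Cyp2g1 and Ugt2a1 highest), -0.27 for 5 gland markers (Bpifb9b, Aqp5 and Ltf), 0.06 for 4 ciliated respiratory markers (Rsph1, Tekt1 and Ccdc39) and 0.23 for 6 mature OSN markers (Omp, Gng13 and Cnga2). They were -1.81 for 4 tested microvillar markers, -0.66 for 4 progenitor markers (Neurod1, Kit and Neurog1 highest) and -2.47 for 4 blood and immune markers. Of the last 4, 3 had estimates below 0, among them Lyz2 (-3.695) and Cd74 (-4.087). The highest in TPM, Hba-a1, had a log2 fold change of 0.13. Without both libraries the calls were all lower, in 2 of 3 microvillar markers and 2 of 4 blood and immune markers, against 2.42% of all genes tested. With 8 controls and 6 Taar5+ libraries, the minimum of 7 libraries kept genes that reached 1 TPM only in Taar5+ cells from being tested. The microvillar genes were Ascl3 (medians 119 TPM in 8 controls and 4.23 TPM in 6 Taar5+ libraries, limma adjusted p = 0.00989) and Foxi1 (22.01 and 0 TPM, limma adjusted p = 0.0108), transcription factor genes of ionocyte-like cells. Pou2f3, of tuft-like microvillar cells, did not pass, with 10.5 and 8.82 TPM over the 16. The immune genes were Cd74 (88.5 and 0.182 TPM, limma adjusted p = 0.00272) and Lyz2 (147 and 7.15 TPM, limma adjusted p = 0.00735). Of the 6 sustentacular markers, 0 passed in these 14 libraries, and the median of their log2 fold changes was 0.27. Their summed TPM there had medians of 1398 in controls (356 to 1985) and 744 in Taar5+ libraries (226 to 4293), so the sums overlapped.

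The genes whose levels over the 9 controls were most like Krt5 and most like Krt8 differed in kind of profile. For Krt5 they were Srgap2 (r = 0.99), Rela (0.99), Baiap2 (0.99), Pip5k1c (0.99) and Dcaf7 (0.99), low in controls 2 and 4 as Krt5 was. Without control 2 their r was 0.97 to 0.98, with control 4, at 3.74 TPM of Krt5, still included. For Krt8 they were Cd63 (r = 0.99), Scgb1c1 (0.98), Ces1d (0.97), Tspan12 (0.97) and Pgrmc1 (0.97), each highest in control 2, where the secretoglobin gene Scgb1c1 was at 71782 TPM, against 195 to 2495 TPM in the others. Without control 2 their r was 0.86 to 0.95. The genes for Krt5 and for Krt8 were picked by r over these same controls, so these values are no separate check.

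In the Taar6 line each group had 1 library, so differences have no replicate check and no test. Krt5 was at 9.89 TPM in the positive library and 41.6 TPM in its control, Krt14 at 4.34 and 21.1 TPM, and Trp63 at 1.40 and 4.70 TPM. These 3 were lower in the positive library, with differences of -1.97, -2.05 and -1.25 on the log2(TPM + 1) scale. Krt15 (9.87 and 6.45 TPM, difference 0.54), Krt8 (59.2 and 33.8 TPM, 0.79) and Krt18 (144 and 77.5 TPM, 0.89) were higher in the positive library, and Epcam (406 and 533 TPM, -0.39) was lower. Over 15189 genes at 1 TPM or more in either library the median difference was -0.21, and 13.8% lay below -1. Basal keratins were 10.6% of the 5 keratins in Taar6+ cells and 38.3% in the control, and the sustentacular sums were 3190 and 611 TPM. Levels in this line are not set against those of the Taar5 line, since Gapdh was at 1.43 and 6.06 TPM here and at 436 to 1222 TPM there.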

How the data were processed

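Cells of the mouse MOE were sorted by FACS and sequenced by Smart-seq2, without molecular identifiers. Per the study's methods and the submitters' processing notes, the authors trimmed reads with Trimmomatic 0.36, aligned them to mm10 with HISAT2 2.1.0 and quantified genes with Cufflinks 2.2.1. The deposited values are TPM. The annotation, strand setting and handling of shared reads are not given in the sources used here. Depth cannot be had from TPM, and some values of 0 may be estimates that failed.

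The 23847 rows held 23359 symbols, and the 488 repeats were summed. The Taar values of control replicate 2 equalled those of replicate 1 and were left out of its Taar sum. In the 16 libraries of the Taar5 line, genes that reached 1 TPM in 7 or more were compared on the log2(TPM + 1) scale, which makes fold changes of low genes too small, using limma 3.58.1 in R 4.3.3 (eBayes, trend). The minimum of 7 was kept where libraries were left out. P-values were adjusted by Benjamini-Hochberg over every gene tested, and 0.05 was the threshold. Relations between members used exact two-sided permutation tests over pairings (Python 3.11.15, scipy 1.17.1), adjusted over 12 relations.

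The 7 genes and the lists were chosen with earlier results of these data known, as were the libraries left out as a pair. Named genes are the 7, from each list those past the threshold or else the 3 with the highest mean TPM, keratins with a mean of at least 5 TPM, and the 5 genes most like Krt5 and Krt8. Genes that passed without both libraries were named after their values were seen. A result from the lists is not reported here. Alternatives were other pseudocounts, filters, scalings, variance models and weights, a replicate block, the control of the Taar6 line, all 18 libraries, and leaving out libraries.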

Additional observations from a re-analysis of the deposited data

Results flagged for a closer look

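In 4 of 14 groups of values checked, counting each gene in the 9 controls and in the 7 Taar5+ libraries, 1 library lay far from the rest of its group by Dixon's criterion at 95%. About 1 in 20 groups is so marked by chance, which for 14 groups is 0.7. In control replicate 2, Krt14 and Trp63 were listed at 0 TPM, the lowest of the controls, while Krt8 was at 1145 TPM, the highest. In Taar5+ replicate 5, Trp63 was at 15.97 TPM, the highest of its group.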

How the results depend on the processing

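In the 16 libraries 21 genes passed, 18 of them higher and 3 lower in Taar5+ cells. The number was 109 with quantile normalization (35 higher, 74 lower), 11 with TPM rescaled without receptor genes, 1410 with array weights, which gave control replicate 2 a weight of 0.0513 (197 higher, 1213 lower), and 337 without control replicate 2 and Taar5+ replicate 5 (49 higher, 288 lower). Leaving out 1 library at a time gave 16 to 148, with 148 without control replicate 2 and 66 without Taar5+ replicate 5. Of the 7 genes, 0 passed with 16 libraries, where 21 of 12502 genes tested did, and 0 to 1 without 1 library. With array weights 5 passed (Krt5, Krt14, Krt15, Trp63 and Epcam), where 1410 of 12502 genes tested did. Without both libraries 3 passed, where 337 of 11915 did. All 7 log2 fold changes stayed below 0 in the 27 alternatives, from -4.44 to -2.68 for Krt14, -4.07 to -2.32 for Krt5, -3.74 to -1.49 for Trp63 and -0.52 to -0.27 for Epcam. Of the relations, 5 passed by Pearson's r and 3 to 6 without 1 library, 3 of them without control replicate 2 or 7 or Taar5+ replicate 1, 3 or 5. The relation of Krt8 and Krt18 passed in both groups in all 16 such repeats. With a pseudocount of 0.1 the Taar6 line differences were -2.06 for Krt5, -2.25 for Krt14, 0.61 for Krt15, 0.81 for Krt8, 0.90 for Krt18 and -1.68 for Trp63. The causes of these moves were not tested.

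The groups share replicate numbers, and the labels do not say whether these pair the libraries. Correlations of same-numbered libraries ran from -0.01 to 0.28, and 3 of 7 were best with their own number among 9 controls. Pairing is neither shown nor excluded by these values, and the main test was unpaired. A replicate block gave 12 genes past the threshold and 0 of the 7. Unknown depth limits values near 0, and a value of 0 was not read as absence.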
